A study of Homo sapiens with 14 samples.

Results

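The genes of glycolysis and glycogen metabolism were followed here across all 14 RNA-seq libraries of SK-N-BE2, an established human neuroblastoma cell line with amplified MYCN. The group was chosen by name and function, but with earlier results of these data known. It holds 33 genes. They include 4 glucose and lactate transporters, 9 enzymes from hexose to triose phosphate and 3 kinases that make the activator of phosphofructokinase. The rest are 6 enzymes from triose phosphate to pyruvate, 2 lactate dehydrogenases, 4 pyruvate dehydrogenase kinases and 5 genes of glycogen synthesis and breakdown. Of all 33, 32 had a row among the 19923 protein-coding genes in the files, and LDHB was not analysed here. A filter on low counts kept 31 in each set of libraries. The gene left out, PDK4, was at 0 in 13 of 14 libraries and had 4 counts in the other. For counting error only, a count of 0 allows up to 3 counts. In the CoCl2 set this is 0.0759 to 0.0961 counts per 1e6 (CPM), depending on the library. No limit is given for the knockout set, because most of its fragments were counted as 2 reads.

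The series asks about 5-hydroxymethylcytosine, the DNA base that TET enzymes make, and about the repressor complex PRC2 in MYCN-amplified neuroblastoma. The CoCl2 set held wild-type cells in 3 groups of 2 libraries: water alone (H2O), CoCl2 at 10 µM, and CoCl2 at 50 µM. The knockout set held untreated cells, wild type (WT) or labelled TET2 knockout 1, 2 or 3, again with 2 libraries each. All cells grew in RPMI1640 with serum, and RNA was read as strand-specific poly(A) libraries. The labels give neither the time in CoCl2, nor how the knockouts were made, nor whether each is 1 clone. They also do not say that replicates came from separate cultures, so p-values measure the spread between these libraries, which may be technical.

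Glycolysis splits glucose into pyruvate in the cytosol and yields ATP without oxygen. Cells short of oxygen stabilise the transcription factor HIF, which is known to raise glucose transporters, most glycolytic enzymes, the lactate exporter and PDK1, the kinase that keeps pyruvate out of mitochondria. CoCl2 is used as a chemical mimic of hypoxia because cobalt blocks the hydroxylases that mark HIF for destruction. Those hydroxylases and the TET enzymes belong to the same family of iron- and oxoglutarate-dependent dioxygenases. MYCN, as a MYC protein, also drives many glycolytic genes. Neuroblastoma lines are usually placed on a scale from an adrenergic to a mesenchymal state.

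Total counts ran from 31214128 to 39540111 per library in the CoCl2 set and from 52095024 to 59263320 in the knockout set, where most fragments were counted as 2 reads. TET2 itself was not lower in any labelled knockout. It stood at 70.8 and 64.8 CPM in WT, 80.4 and 76.6 in knockout 1 (log2 difference 0.21, SE 0.05, adjusted p = 0.000664), 87.4 and 91.1 in knockout 2 (0.40, SE 0.05, adjusted p = 3.86e-12), and 68.2 and 75.4 in knockout 3 (0.08, SE 0.05, adjusted p = 0.301). A gene total does not show a small deletion, so each direction below rests on the labels. Adrenergic markers, MYCN included, were present in every library, with a summed level from 7231 to 12860 CPM. Blood markers summed to 0.36 to 1.35 CPM, with HBB at 0 in every library.

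Per length, GAPDH, which oxidises glyceraldehyde phosphate, had the highest level in both controls (1994 RPKM ± 14.7 in H2O and 2063 ± 17.8 in WT, SD, n = 2), and ENO1, the main enolase, followed (829 ± 2.10 and 549 ± 20.1). PGK1, TPI1 and PKM came next, in a different order in each control. PFKFB2, SLC16A3 and PYGL, the liver-type glycogen phosphorylase, were at the low end. LDHA, which turns pyruvate into lactate, was also low per length, at 4.83 to 5.68 RPKM across the 4 control libraries. The members together took 1.95% and 1.94% of all counts in H2O, 1.87% and 1.85% at 10 µM, and 2.08% and 2.11% at 50 µM. In the knockout set they took 1.45% and 1.48% in WT, 1.56% and 1.60% in knockout 1, 1.43% and 1.45% in knockout 2, and 1.54% and 1.48% in knockout 3.

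**Figure D1:**
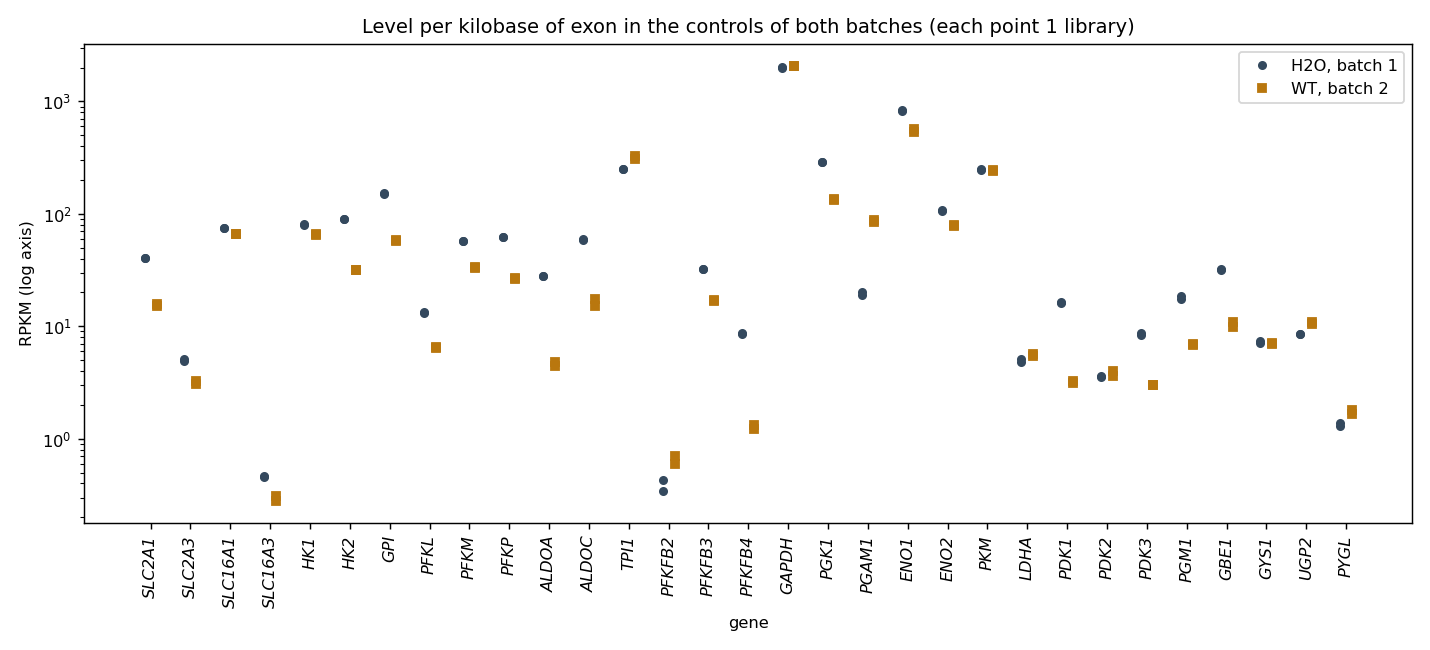
Level of each tested member in reads per kilobase of exon per 1e6 counts (RPKM, log axis), with 1 point for each H2O library and each WT library. GAPDH and ENO1 lie highest in both controls, and PFKFB2 and SLC16A3 lowest. The sets were scaled apart.

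The 2 controls, both labelled wild type, sat at different levels of the pathway. These values carry no test, because the sets were counted and scaled apart, and culture, library and counting cannot be told apart. Of 31 members, 13 were at least 2-fold higher in H2O than in WT and 1, PGAM1, was at least 2-fold lower, against 11.1% and 7.18% of 13373 genes tested in both sets. The median log2 difference was 0.65 for the members and 0.10 for all genes. PFKFB4 was 6.77-fold higher, ALDOA 6.12-fold, PDK1 5.07-fold, ALDOC 3.62-fold and GBE1 3.1-fold, while GAPDH (0.967-fold) and PKM (1.02-fold) were level. All 15 HIF targets outside glycolysis were at least 2-fold higher in H2O, with a median log2 difference of 1.90.

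CoCl2 at 50 µM moved most members, and in both directions. Of the 31 tested, 16 were higher and 8 lower than in H2O, or 77.4%. Of all 13636 genes tested 61.4% were called, 30.4% higher and 31.1% lower (edgeR's quasi-likelihood test, Benjamini-Hochberg adjusted p under 0.05 over all genes). The changes were small. No member reached a called 1.5-fold change at either dose or between the doses, which 10.7% of all genes did at 50 µM, 1.4% at 10 µM and 6.72% between the doses. The members' median log2 change was 0.093 and that of all genes 0.002. The 3 largest rises were PDK1, SLC2A3 and ALDOA, and the 3 largest falls ALDOC, SLC16A3 and LDHA. At 10 µM the pattern was the other way: 3 members were higher and 14 lower, or 54.8%. Of all genes 22.7% were called, 11.6% higher and 11.1% lower. The members' median was -0.061. Of the 17 calls at 10 µM 8 held in all 10 alternative fits, and of the 24 at 50 µM 20 did. The 2 doses share their H2O libraries.

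Tested directly, 21 members were higher at 50 µM than at 10 µM and 3 lower, or 77.4%. Of all genes 52.8% were called, 26.2% higher and 26.5% lower. The members' median log2 difference was 0.159. Of these calls 21 of 24 held in every alternative fit. PGAM1 (0.12), TPI1 (0.04) and PFKM (-0.06) did not. The PGAM1 and TPI1 calls ended without either the second 10 µM library (0.11 and 0.03) or the second 50 µM library (0.09 and 0.03), and the PFKM call without the first 10 µM library (-0.04). All 6 enzymes from triose phosphate to pyruvate were among the 21. ALDOC, PDK3 and PFKM were the 3 that were lower.

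**Figure D2:**
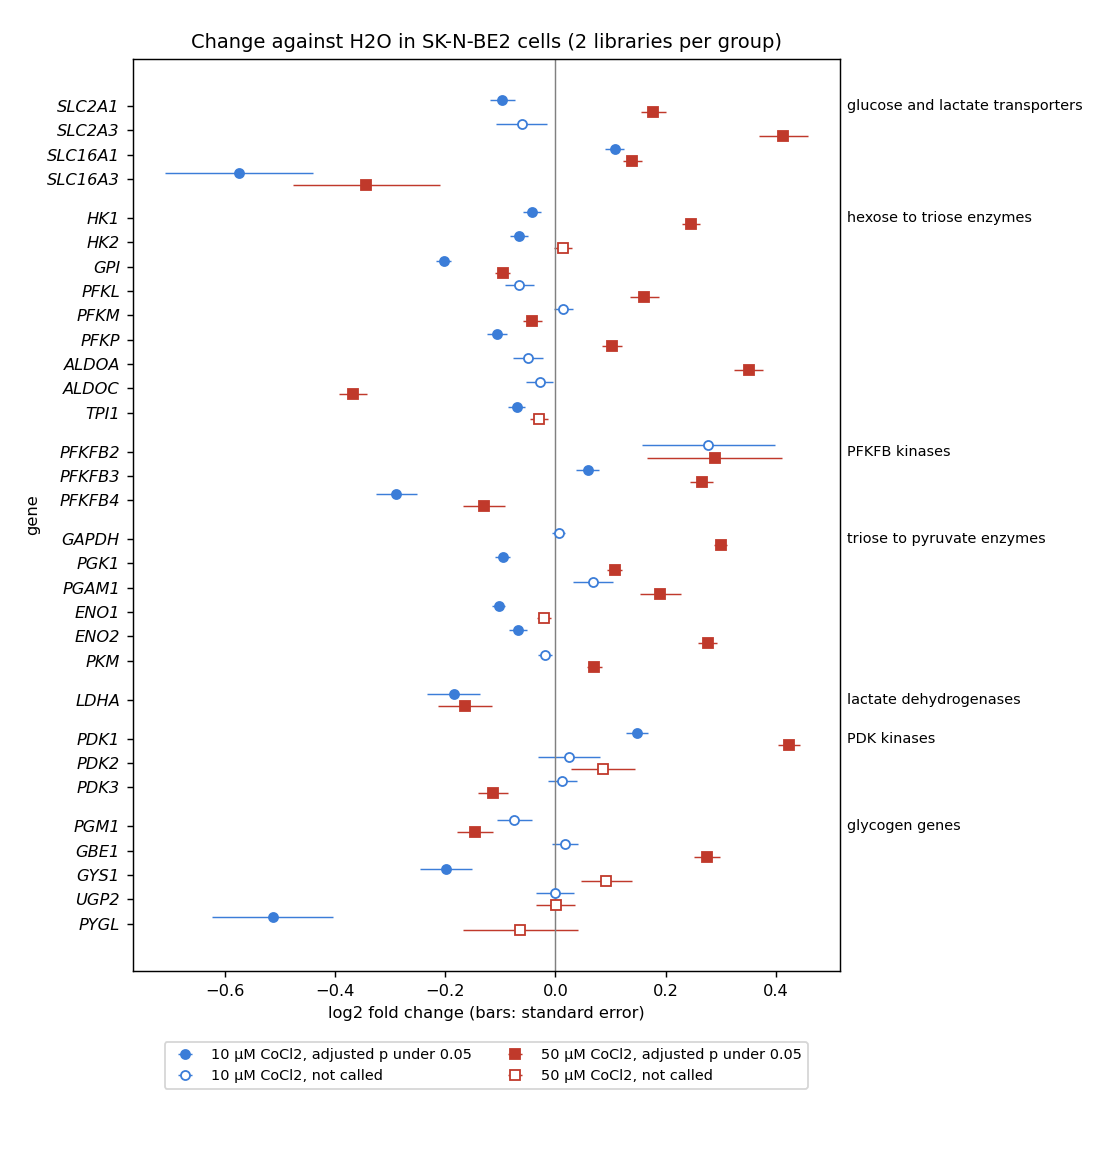
Log2 fold change against H2O at 10 µM and 50 µM CoCl2 for the 31 tested members by role, with bars of 1 standard error (2 libraries a group). Filled points have an adjusted p under 0.05. PDK1 lies farthest right at 50 µM and SLC16A3 farthest left at 10 µM.

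The RefSeq promoters (GRCh38.p14) of these leading genes are shown because the core of the hypoxia response element, the site HIF binds, reads ACGTG or GCGTG. Each window is the 250 bases before 1 annotated start, the first listed for the gene, and other starts were not examined. It is written 5′ to 3′ along the gene's strand, and capitals mark matches to either word on either strand. The word CACGTG reads the same on both strands, so it holds 2 overlapping matches, and it is also the E-box of MYC proteins. The windows are PDK1 at chr2:172555123-172555372 on the plus strand, ALDOA at chr16:30064029-30064278 on the plus strand, ALDOC at chr17:28576896-28577145 on the minus strand, SLC16A3 at chr17:82228185-82228434 on the plus strand and LDHA at chr11:18394313-18394562 on the plus strand. SLC2A3 is named only.
PDK1: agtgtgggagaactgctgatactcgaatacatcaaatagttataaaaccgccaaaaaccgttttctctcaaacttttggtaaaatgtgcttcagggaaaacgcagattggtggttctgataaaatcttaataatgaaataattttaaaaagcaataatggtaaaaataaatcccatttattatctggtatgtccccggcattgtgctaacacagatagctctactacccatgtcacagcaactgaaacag
ALDOA: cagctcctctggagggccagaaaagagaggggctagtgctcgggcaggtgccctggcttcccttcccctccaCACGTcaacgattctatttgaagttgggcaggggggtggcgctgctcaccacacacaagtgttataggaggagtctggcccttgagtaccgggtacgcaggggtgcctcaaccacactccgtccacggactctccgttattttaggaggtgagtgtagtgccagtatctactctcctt
ALDOC: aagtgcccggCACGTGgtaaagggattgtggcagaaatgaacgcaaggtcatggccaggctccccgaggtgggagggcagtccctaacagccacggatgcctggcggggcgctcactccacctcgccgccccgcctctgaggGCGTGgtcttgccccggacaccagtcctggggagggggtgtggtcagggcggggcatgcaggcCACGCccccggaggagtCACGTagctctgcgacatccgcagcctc
SLC16A3: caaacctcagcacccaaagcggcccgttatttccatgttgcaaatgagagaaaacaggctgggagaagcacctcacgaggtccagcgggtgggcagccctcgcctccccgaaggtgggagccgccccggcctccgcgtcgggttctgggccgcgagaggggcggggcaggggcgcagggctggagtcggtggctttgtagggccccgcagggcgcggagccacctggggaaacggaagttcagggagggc
LDHA: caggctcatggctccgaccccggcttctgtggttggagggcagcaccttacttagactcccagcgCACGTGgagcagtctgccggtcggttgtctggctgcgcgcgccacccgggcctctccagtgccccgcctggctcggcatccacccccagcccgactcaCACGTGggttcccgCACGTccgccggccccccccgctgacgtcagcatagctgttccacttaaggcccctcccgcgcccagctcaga
PDK1 and SLC16A3 had 0 matches, ALDOA had 1, and ALDOC and LDHA had 5 each. So the largest rise and 1 of the falls had no match in this window, and the other 2 falls had the most. Of the 30 members with a RefSeq window, 16 (53.3%) had at least 1 match, as did 43.2% of 35116 windows of that length. Members had 1 window each, while the 35116 windows were not limited to 1 per gene. The share was 7 of 13 among members higher at 50 µM, 5 of 8 among those lower and 4 of 7 among those not called. A match is a run of letters and not a measured binding site.

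Among the transporters, SLC2A3 (the high-affinity glucose transporter GLUT3) was at 29.8 and 30.8 CPM in H2O, 29.5 and 28.6 at 10 µM, and 40.4 and 40.3 at 50 µM. The 50 µM libraries lay apart from the other 4. The log2 change was 0.41 at 50 µM (SE 0.04, adjusted p = 4.25e-16) and -0.06 at 10 µM (SE 0.05, adjusted p = 0.377). Its counts are less certain than most, because 16% of its 50-base stretches also occur in other genes, mainly its near copy SLC2A14. SLC2A1, the widespread GLUT1, fell at 10 µM and rose at 50 µM. Its libraries stood at 178 and 177 CPM in H2O, 169 and 163 at 10 µM, and 200 and 201 at 50 µM, with log2 changes of -0.10 (SE 0.02, adjusted p = 0.000467) and 0.18 (SE 0.02, adjusted p = 2.04e-12). The fall at 10 µM was not called without the second 10 µM library (-0.07, adjusted p = 0.0792) or with all 14 libraries in 1 fit.

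The lactate carriers moved apart. SLC16A1 (MCT1), which carries lactate in and out, rose at both doses. It was at 394 and 394 CPM in H2O, 426 and 423 at 10 µM, and 438 and 430 at 50 µM, log2 0.11 (SE 0.02, adjusted p = 1.87e-07) and 0.14 (SE 0.02, adjusted p = 1.71e-12). SLC16A3 (MCT4), the exporter known as a HIF target, was scarce and lower at both doses. Its libraries held 4.16 and 4.14 CPM in H2O, 2.91 and 2.68 at 10 µM, and 3.17 and 3.36 at 50 µM. The log2 changes were -0.57 (SE 0.13, adjusted p = 0.000438) and -0.34 (SE 0.13, adjusted p = 0.0192), and the groups did not overlap. The 10 µM call missed the threshold in DESeq2 (adjusted p = 0.0536). At 50 µM the call ended without either H2O library (-0.34 and -0.35) or either 50 µM library (-0.30 and -0.39), and in DESeq2 (adjusted p = 0.161).

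Of the hexose enzymes, 4 rose and 3 fell at 50 µM, where 30.4% of all genes were called higher and 31.1% lower. At 10 µM 5 fell, where 11.1% of all genes were called lower. HK1, the housekeeping hexokinase, was at 512 and 505 CPM in H2O, 497 and 491 at 10 µM, and 603 and 603 at 50 µM, where it rose by log2 0.25 (SE 0.02, adjusted p = 3.16e-31). Its small change at 10 µM (-0.04, SE 0.02, adjusted p = 0.0471) was not called without the first H2O library (-0.03), the second H2O library (-0.05), the first 10 µM library (-0.05) or the second (-0.03). HK2, the hexokinase more often named as a HIF target, was at 532 and 533, 511 and 506, and 545 and 531 CPM. Its 50 µM libraries overlapped H2O (0.01, SE 0.02, adjusted p = 0.472). GPI, which isomerises glucose phosphate to fructose phosphate, was lower at both doses. It was at 1636 and 1613 CPM in H2O, 1419 and 1404 at 10 µM, and 1507 and 1533 at 50 µM, so the lower dose had the lower level. Its log2 changes were -0.20 (SE 0.01, adjusted p = 2.25e-29) and -0.10 (SE 0.01, adjusted p = 2.93e-10), both called in every alternative fit.

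Phosphofructokinase commits the sugar to glycolysis, and its 3 subunit genes differed. The liver-type PFKL and platelet-type PFKP rose at 50 µM, by log2 0.16 (SE 0.03, adjusted p = 1.82e-08) and 0.10 (SE 0.02, adjusted p = 3.69e-07). The muscle-type PFKM had a log2 change of -0.04 (SE 0.02, adjusted p = 0.0327), a call that ended in 7 fits, including those without any 1 of the 4 libraries (-0.04 to -0.05). At 10 µM PFKP fell by 0.11 on the log2 scale (SE 0.02, adjusted p = 1.11e-06).

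Both aldolases cut fructose bisphosphate, and at 50 µM they went opposite ways. ALDOA, the widespread form, was at 108 and 108 CPM in H2O, 104 and 104 at 10 µM, and 134 and 141 at 50 µM (log2 0.35, SE 0.03, adjusted p = 1.1e-26). ALDOC, the brain form, was at 154 and 156 CPM in H2O, 151 and 152 at 10 µM, and 117 and 123 at 50 µM (log2 -0.37, SE 0.03, adjusted p = 5.77e-30). At 10 µM neither was called. Per length, ALDOA was 32.2% ± 0.212 (SD, n = 2) of the 2 messages in H2O, 31.9% ± 0.0379 at 10 µM and 43.9% ± 0.0613 at 50 µM. The level of ALDOA is uncertain, since 43.3% of its exon bases overlap another annotated gene, AC093512.2, on the same strand. TPI1, which interconverts the triose phosphates, fell slightly at 10 µM (-0.07, SE 0.02, adjusted p = 0.000193) and not detectably at 50 µM (-0.03, SE 0.02, adjusted p = 0.0892).

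**Figure D3:**
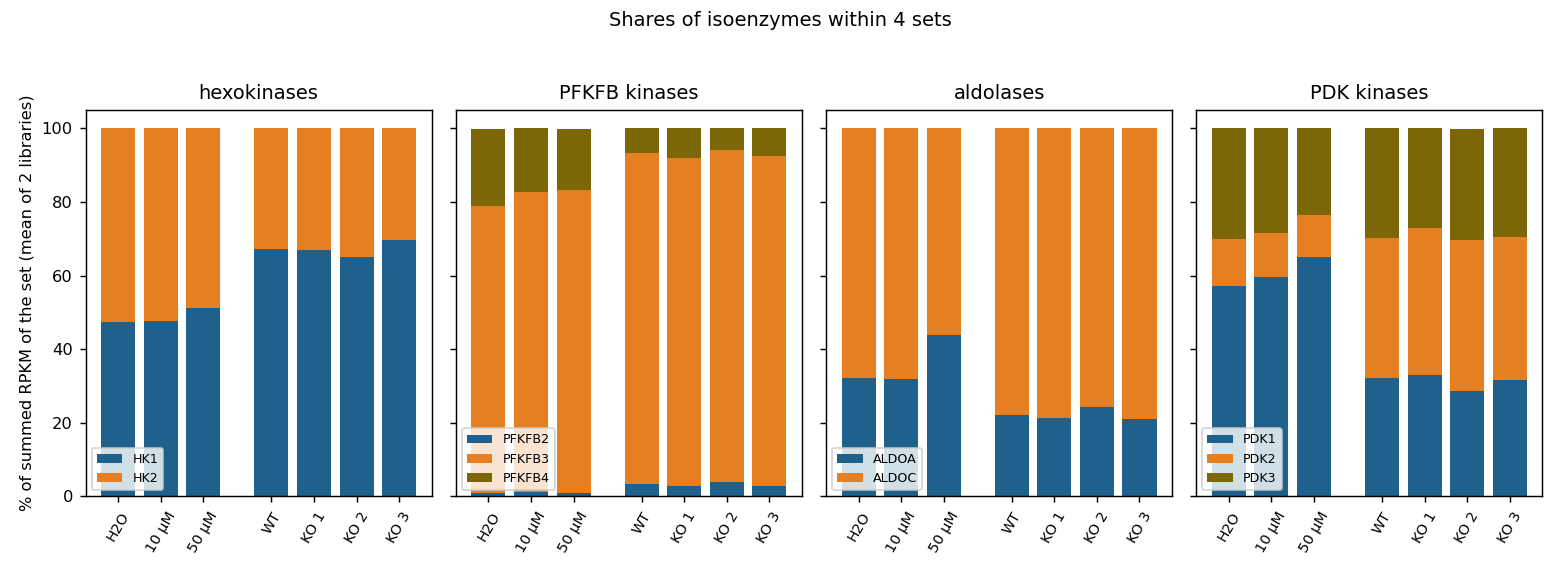
Mean share of each isoform (percent of the set's summed level per kilobase of exon) in each group for the hexokinases, PFKFB kinases, aldolases and pyruvate dehydrogenase kinases. PDK4 is not drawn. The ALDOA share is 43.9% at 50 µM against 32.2% in H2O, and the PDK1 share 65.1% against 57.3%.

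The PFKFB enzymes set the level of the activator of phosphofructokinase, which is not the fructose bisphosphate that the aldolases cut. PFKFB3, the main form here, was at 199 and 196 CPM in H2O, 206 and 205 at 10 µM, and 241 and 233 at 50 µM, where it rose by log2 0.27 (SE 0.02, adjusted p = 3.92e-24). PFKFB4, also known as a HIF target, was lower at both doses. Its libraries held 52.0 and 53.5 CPM in H2O, 43.2 and 43.1 at 10 µM, and 49.0 and 47.5 at 50 µM. The log2 changes were -0.29 (SE 0.04, adjusted p = 9.83e-11) and -0.13 (SE 0.04, adjusted p = 0.00156), both called in every alternative fit, and its share of the 3 messages per length went from 20.9% to 17.2% and 16.7%.

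PFKFB2, the heart form, was scarce, at 3.50 and 4.39 CPM in H2O, 4.50 and 5.04 at 10 µM, and 4.83 and 4.81 at 50 µM. Its call at 50 µM (0.29, SE 0.12, adjusted p = 0.0341) rested on the first H2O library, without which the change was 0.13 (adjusted p = 0.439). It was also lost without the first or second 50 µM library (0.29 each) and in DESeq2. At 10 µM PFKFB3 had a log2 change of 0.06 (SE 0.02, adjusted p = 0.0358), a call lost in 8 of 10 alternative fits, including those without any 1 of the 4 libraries (0.05 to 0.07).

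From triose phosphate to pyruvate, 5 of 6 genes rose at 50 µM and none fell, while 30.4% of all genes were called higher and 31.1% lower. GAPDH was at 4801 and 4752 CPM in H2O, 4807 and 4785 at 10 µM, and 5831 and 5930 at 50 µM (log2 0.30, SE 0.01, adjusted p = 2.58e-56). At 10 µM it was not called (0.006, SE 0.01, adjusted p = 0.778). ENO2, the neuronal enolase, was at 460 and 458, 438 and 437, and 554 and 557 CPM, a rise of log2 0.28 at 50 µM (SE 0.02, adjusted p = 1.92e-35). PGAM1 (0.19), PGK1 (0.11) and PKM (0.07) rose too, PGAM1 with 30.5% of its 50-base stretches shared with other genes, mostly its pseudogenes. ENO1 was the gene not called (-0.02, SE 0.01, adjusted p = 0.134). At 10 µM 3 of the 6 fell, against 11.1% of all genes. ENO1 and PGK1 fell by 0.10 each in every alternative fit. ENO2 fell by 0.07, which was not called with all 14 libraries in 1 fit.

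LDHA was lower at both doses. It was at 30.7 and 29.2 CPM in H2O, 26.6 and 26.1 at 10 µM, and 27.1 and 26.5 at 50 µM, with log2 changes of -0.19 (SE 0.05, adjusted p = 0.0016) and -0.16 (SE 0.05, adjusted p = 0.00217). All treated libraries lay below both H2O libraries, by a small margin. Without the first H2O library the changes were -0.15 (adjusted p = 0.0711) and -0.13 (adjusted p = 0.0587), and neither call held in DESeq2.

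PDK1 had the largest rise of all members at 50 µM. It stood at 242 and 244 CPM in H2O, 272 and 267 at 10 µM, and 328 and 324 at 50 µM. The 3 groups did not overlap, and the log2 changes were 0.15 (SE 0.02, adjusted p = 2.4e-10) and 0.42 (SE 0.02, adjusted p = 2.34e-48), with 0.28 between the doses (SE 0.02, adjusted p = 1.35e-28). Its share of the PDK messages per length went from 57.3% ± 0.56 (SD, n = 2) in H2O to 59.6% ± 1.47 at 10 µM and 65.1% ± 0.0287 at 50 µM. PDK3 fell at 50 µM (-0.11, SE 0.03, adjusted p = 0.000139). PDK2, of which 38.6% of exon bases overlap SAMD14 on the other strand, was not called (0.09, SE 0.06, adjusted p = 0.188).

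The glycogen genes did not move as a group. GBE1, the branching enzyme, was at 148 and 151 CPM in H2O, 153 and 150 at 10 µM, and 182 and 180 at 50 µM, a rise of log2 0.28 at 50 µM (SE 0.02, adjusted p = 2.3e-22). PGM1, which moves phosphate between the positions of glucose phosphate and so links glycogen to glycolysis, fell at 50 µM. Its libraries held 75.2 and 71.1, 70.1 and 68.9, and 67.2 and 65.2 CPM (50 µM log2 -0.15, SE 0.03, adjusted p = 4.74e-05).

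PYGL was lower at 10 µM and back near H2O at 50 µM. It was at 6.29 and 5.95 CPM in H2O, 4.44 and 4.14 at 10 µM, and 5.601 and 6.07 at 50 µM. The log2 changes were -0.51 (SE 0.11, adjusted p = 0.000103) and -0.06 (SE 0.10, adjusted p = 0.616), and the doses differed by 0.45 (SE 0.12, adjusted p = 0.000453). GYS1, the muscle-type glycogen synthase, was also lowest at 10 µM. It was at 30.3 and 31.6 CPM in H2O, 26.5 and 27.4 at 10 µM, and 31.9 and 34.0 at 50 µM. Its fall at 10 µM was -0.20 (SE 0.05, adjusted p = 0.000551), which DESeq2 did not call (adjusted p = 0.054), nor did the fit of all 14 libraries. UGP2, which makes the UDP-glucose that glycogen synthase uses, was between 55.0 and 55.4 CPM in all 6 libraries.

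**Figure D4:**
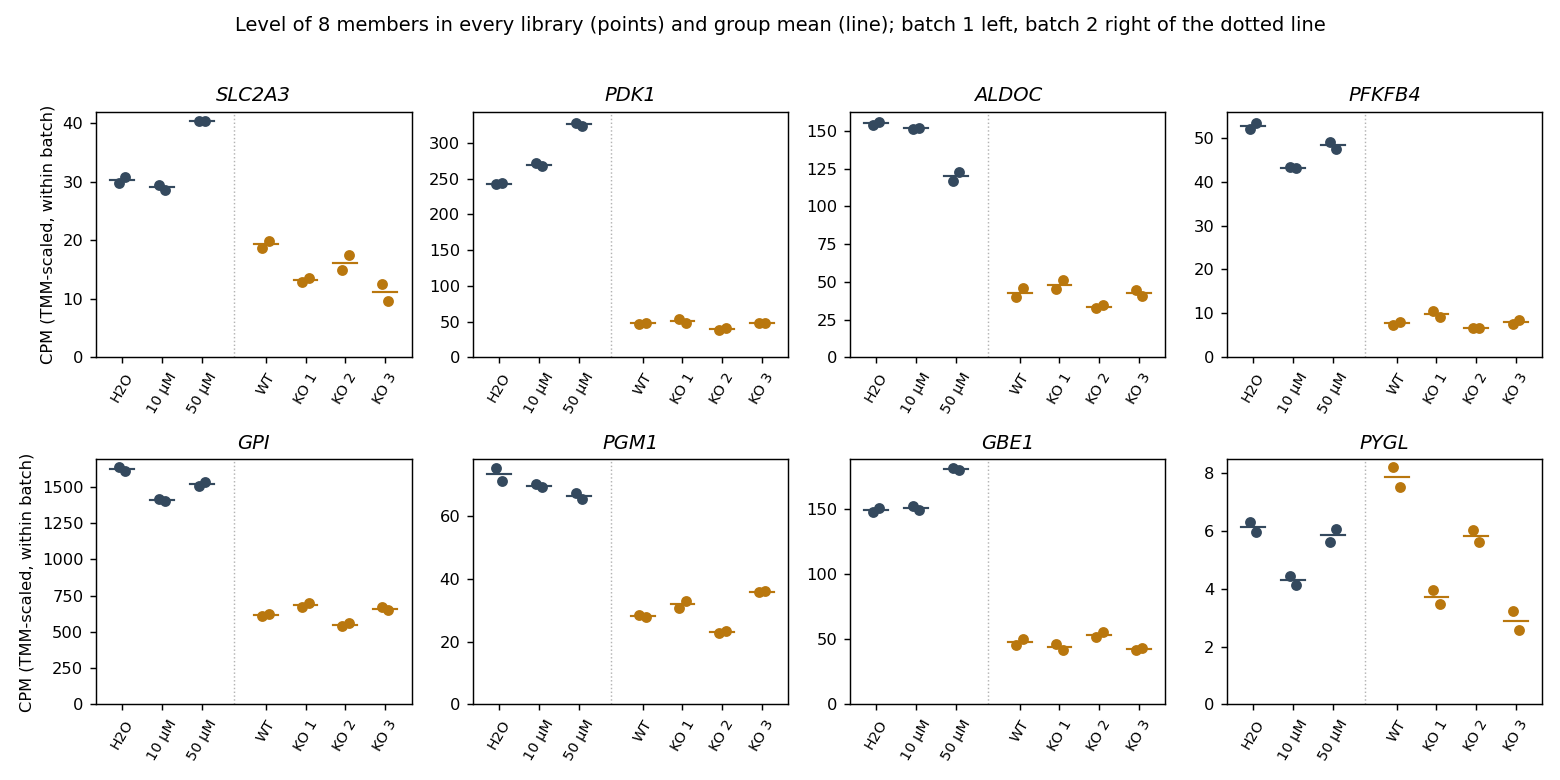
Level in CPM in every library for SLC2A3, PDK1, ALDOC, PFKFB4, GPI, PGM1, GBE1 and PYGL, with 2 points a group in the CoCl2 set and the knockout set. PDK1 rises with dose, ALDOC falls at 50 µM, and PYGL is lower in each labelled knockout than in WT.

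Of 15 HIF targets outside glycolysis, 14 (93.3%) rose at 50 µM and none fell (median 0.278), while 61.4% of all genes were called and 30.4% were higher. The largest rises on the list were the adenylate kinase AK4 (0.99, adjusted p = 3.53e-74) and the carbonic anhydrase CA12 (0.99, adjusted p = 5.87e-42). At 10 µM 4 rose and 4 fell (53.3%, against 22.7% of all genes). Of 17 other glycolytic and transport isoforms, 3 rose and 6 fell at 50 µM, or 52.9%, which is near the share of all genes. The largest called changes on this list were a rise of HKDC1 by 1.97 on the log2 scale (adjusted p = 0.000322) and a fall of SLC2A6 by 0.82 (adjusted p = 4.09e-21). Of 21 other glycogen genes, 7 rose and 7 fell, or 66.7%, also near that share, with the phosphorylase kinase subunit PHKA2 at 0.80 (adjusted p = 1.69e-46) and the glycogen-targeting phosphatase subunit PPP1R3B at -0.73 (adjusted p = 1.48e-42). PDP1, the phosphatase that opposes the PDK kinases, rose by 0.39 (adjusted p = 6.03e-17). TXNIP and ARRDC4, arrestins induced when glucose phosphates build up, rose at both doses: TXNIP by 0.33 and 0.59, ARRDC4 by 0.28 and 0.37.

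The cell-state markers moved with CoCl2 too. The adrenergic genes summed to 12160 to 12180 CPM in H2O, 12790 to 12860 at 10 µM and 10830 to 10900 at 50 µM. The mesenchymal genes summed to 1641 to 1647, 1669 to 1679 and 2097 to 2111 CPM, with COL1A2 at 0 in H2O and at 10 µM. Most of that sum is VIM, at 1137, 1163 and 1521 CPM. Of 11 mesenchymal genes tested at 50 µM, 5 were higher and 3 lower (72.7%, against 61.4% of all genes), and TWIST1 went from 93.6 to 69.4 CPM and COL3A1 from 3.29 to 1.95. MYCN changed by -0.22 at 50 µM. In bulk RNA, fewer cells of a type and less RNA per cell cannot be told apart, and the part of these shifts in the results above was not tested.

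The labelled TET2 knockouts changed the members in different ways. Knockout 1 had 12 members higher and 2 lower than WT, or 45.2% (median 0.088). Of 14061 genes tested 17.5% were called, 7.79% higher and 9.72% lower. Knockout 2 had 3 higher and 12 lower, or 48.4% (median -0.075), where 26.3% of all genes were called, 12% higher and 14.3% lower. Knockout 3 had 6 higher and 5 lower, or 35.5% (median 0.035), where 18.9% of all genes were called, 8.9% higher and 9.96% lower. The medians of all genes were -0.0013, 0.0007 and -0.0005. The 3 comparisons share their WT libraries. Calls that held in every alternative fit were 7 of 14, 9 of 15 and 5 of 11. A test of any difference among the 3 knockouts, which does not use WT, called 25 of 31 members, or 80.6% against 37.6% of all genes.

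Changes past 1.5-fold were few. PYGL passed that size in knockouts 1 and 3 and SLC2A3 in knockout 3, where 3.61% (knockout 1) and 4.14% (knockout 3) of all genes did and were called. In knockout 2 no member did, against 5.07% of all genes. PYGL also passed it in the mean of the knockouts (3.27% of all genes) and in knockout 2 against the others (6.31%). Between the highest and lowest knockout PYGL and PGM1 passed it, as did 7.58% of all genes.

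**Figure D5:**
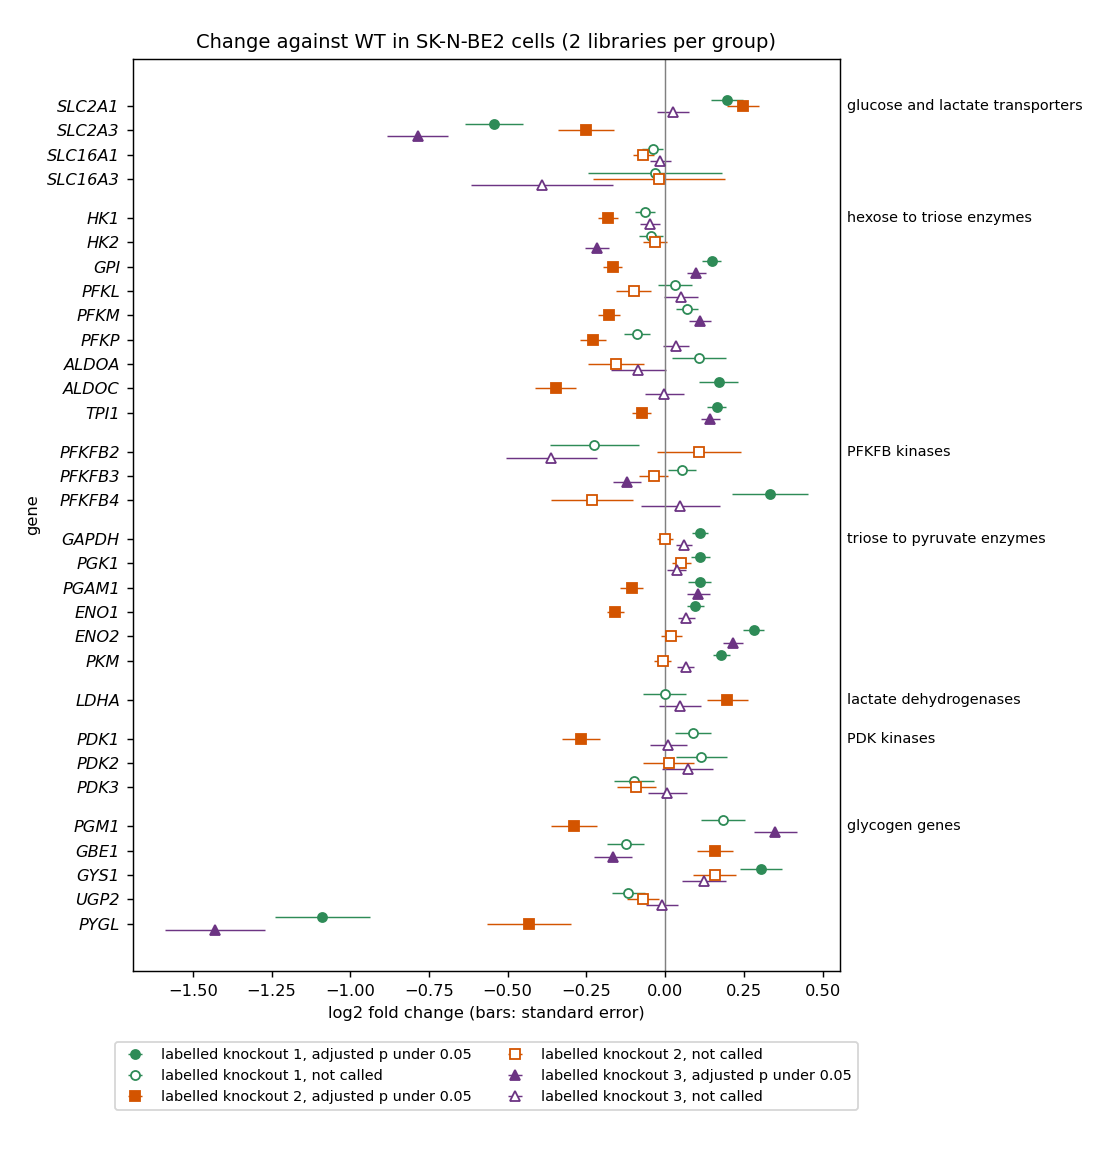
Log2 fold change against WT in labelled knockouts 1, 2 and 3 for the 31 tested members by role, with bars of 1 standard error (2 libraries a group). Filled points have an adjusted p under 0.05. PYGL and SLC2A3 lie left of 0 in all 3, and PGM1, ALDOC and GPI lie left of 0 in knockout 2 and at or right of it in the others within their error.

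PYGL, which frees glucose phosphate from glycogen, had the largest differences. It was at 8.19 and 7.53 CPM in WT, 3.94 and 3.46 in knockout 1, 6.01 and 5.63 in knockout 2, and 3.21 and 2.57 in knockout 3. No knockout library reached WT. The log2 changes were -1.09 (SE 0.15, adjusted p = 4.17e-10), -0.43 (SE 0.13, adjusted p = 0.00871) and -1.43 (SE 0.16, adjusted p = 9.65e-15). The knockout 2 call ended without the first WT library (-0.38) or the second knockout 2 library (-0.39), each with adjusted p = 0.0919. Knockout 2 was higher than the mean of the other two by 0.83 (SE 0.14, adjusted p = 2.3e-07).

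SLC2A3 followed the same order. It was at 18.6 and 19.96 CPM in WT, 13.0 and 13.5 in knockout 1, 14.9 and 17.6 in knockout 2, and 12.5 and 9.71 in knockout 3. The log2 changes were -0.54 (SE 0.09, adjusted p = 7.07e-07), -0.25 (SE 0.09, adjusted p = 0.0234) and -0.79 (SE 0.10, adjusted p = 3.12e-12). In knockout 2 the call was lost without the second WT library (-0.21), without the first knockout 2 library (-0.14) and in DESeq2 (adjusted p = 0.12). Per length, SLC2A3 was 17.0% of the SLC2A1 and SLC2A3 messages in WT, and 11%, 12.7% and 10.4% in the knockouts. SLC2A1 was at 66.5 and 70.1 CPM in WT, 75.5 and 80.9, 80.0 and 82.0, and 72.1 and 66.5 in the knockouts. It was higher in knockout 2 (0.25, SE 0.05, adjusted p = 2.06e-05) and in knockout 1 (0.20, SE 0.05, adjusted p = 0.00158), where the call ended without the first WT library (0.16) or the second knockout 1 library (0.15).

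In knockout 1 all 6 enzymes from triose phosphate to pyruvate were called higher, against 7.79% of all genes. ENO2 was at 332 and 341 CPM in WT and 410 and 408 in knockout 1 (log2 0.28, SE 0.03, adjusted p = 1.98e-13). PKM, pyruvate kinase, was at 2080 and 2108 against 2320 and 2419 CPM (0.18, SE 0.03, adjusted p = 1.5e-08). TPI1 (0.16), GPI (0.15) and GYS1 rose in every fit as well, GYS1 from 29.9 and 29.6 to 36.0 and 37.4 CPM (0.31, SE 0.07, adjusted p = 0.000152). The other calls were weaker. ENO1, PGAM1 and ALDOC ended without the first WT library (0.06, 0.08 and 0.07) or the second knockout 1 library (0.07, 0.09 and 0.08), PGK1 without the first WT library (0.09) and GAPDH without the second knockout 1 library (0.09).

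PFKFB4 was at 7.46 and 8.12 CPM in WT and 10.6 and 9.11 in knockout 1. Its log2 change was 0.33 (SE 0.12, adjusted p = 0.0386), and the call ended without the first WT library (0.28), the second WT library (0.39) or the first knockout 1 library (0.23).

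Knockout 2 was lower for 6 of the 9 hexose enzymes, 2 of the 6 enzymes from triose phosphate to pyruvate, and PDK1, against 14.3% of all genes. The calls of TPI1 among the 6 and PGAM1 among the 2 did not hold in every fit. TPI1 (-0.08) was not called without the second WT library (-0.03), the first knockout 2 library (-0.06) or the second (-0.09). PGAM1 (-0.11) was not called without the second WT library (-0.08), the first knockout 2 library (-0.10) or the second (-0.12). ALDOC was at 39.7 and 45.8 CPM in WT and 32.8 and 34.4 in knockout 2 (log2 -0.35, SE 0.06, adjusted p = 3.98e-06). PGM1 was at 28.6 and 27.7 against 22.6 and 23.4 (-0.29, SE 0.07, adjusted p = 0.00102), and PDK1 at 47.0 and 48.7 against 38.8 and 40.7 (-0.27, SE 0.06, adjusted p = 0.000144). In these 3 genes both knockout 2 libraries lay below both WT libraries. PFKP (-0.23), HK1 (-0.18), PFKM (-0.18), GPI (-0.17) and ENO1 (-0.16) were also called lower in every fit.

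LDHA and GBE1 were called higher in knockout 2. LDHA was at 34.3 and 32.7 CPM in WT and 38.3 and 38.5 in knockout 2 (0.20, SE 0.07, adjusted p = 0.0146), a call that ended without the second WT library (0.16), the first (0.20) or the second (0.19) knockout 2 library. GBE1 was at 45.8 and 50.5 against 51.8 and 55.8 (0.16, SE 0.06, adjusted p = 0.0289), lost without the first WT library (0.08) or the second knockout 2 library (0.10).

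Knockout 3 had few stable calls beyond PYGL and SLC2A3. HK2 was at 189 and 188 CPM in WT and 159 and 165 in knockout 3 (log2 -0.22, SE 0.04, adjusted p = 1.22e-06). PGM1 was higher, at 35.7 and 36.0 CPM (0.35, SE 0.07, adjusted p = 1.39e-05), and so was ENO2, at 397 and 384 (0.22, SE 0.03, adjusted p = 1.92e-08). TPI1 (0.14), PFKM (0.11), GPI (0.10) and PGAM1 (0.11) ended without the first WT library (0.10, 0.10, 0.08 and 0.08), PFKM also without the second knockout 3 library (0.10), GPI without the first (0.08) and PGAM1 without either (0.11 each). GBE1 (-0.17) was not called without the second WT library (-0.09), the first knockout 3 library (-0.14) or the second (-0.19). PFKFB3 (-0.12) was not called without the first WT library (-0.10), the second WT library (-0.14) or the second knockout 3 library (-0.06).

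The knockouts could be compared with each other directly. Against the mean of knockouts 1 and 3, knockout 2 had 7 members higher and 15 lower, or 71.0%, with a median of -0.086. Of all genes 35.2% were called, 17.8% higher and 17.4% lower, with a median of 0.007. In every fit 12 were lower: PGM1 (-0.56), ALDOC (-0.43), PFKFB4 (-0.42), PDK1 (-0.32), GPI (-0.29), PFKM (-0.27), ENO1 (-0.24), TPI1 (-0.23), ENO2 (-0.23), PGAM1 (-0.21), PFKP (-0.20) and PKM (-0.13). PYGL (0.83), SLC2A3 (0.41) and GBE1 (0.30) were higher in every fit. MYCN was 0.72 lower on the log2 scale in knockout 2 than in the mean of the other knockouts (log2 -0.72, SE 0.02, adjusted p = 1.09e-79), and its part in these differences was not tested.

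Averaged over the 3 knockouts, 7 members were higher and 5 lower than WT, or 38.7%. Of all genes 18.9% were called, 7.54% higher and 11.4% lower. PYGL (-0.98, SE 0.12, adjusted p = 3.85e-13), SLC2A3 (-0.53, SE 0.07, adjusted p = 1.05e-09) and ENO2 (0.17, SE 0.03, adjusted p = 4.81e-08) were called in every fit that kept a coefficient for each knockout. Where the 6 knockout libraries shared 1 coefficient, so that the spread between knockouts counted as error, edgeR called 0 of 31 members. In that fit 4 had an unadjusted p under 0.05 (ENO2, GYS1, PYGL and SLC2A3) and the smallest adjusted p was 0.124, while DESeq2 with the mean of 3 coefficients called 11. HK1 (-0.10, SE 0.03, adjusted p = 0.00267) and PFKP (-0.10, SE 0.03, adjusted p = 0.0281) were among the 12, and both ended without the second WT library (-0.09 and -0.08). The PFKP call also ended without the first WT library (-0.11), the first library of knockout 1 or 2 (-0.08 each) or the second of knockout 3 (adjusted p = 0.0514).

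The surrounding pathway gave few shared changes. ENO3, the muscle enolase, was higher in each knockout (0.50, 0.38 and 0.38), and G6PC3, a glucose phosphatase, was too (0.25, 0.21 and 0.17). Of the 15 HIF targets outside glycolysis, 3 were higher and 1 lower in knockout 1, 4 and 5 in knockout 2, and 1 and 4 in knockout 3. These are 26.7%, 60% and 33.3% of the list, against 17.5%, 26.3% and 18.9% of all genes. ADM was lower in each (-1.21, -0.97 and -0.92). PPP1R3B was lower in knockout 2 (-0.62, adjusted p = 5.38e-13) and knockout 1 (-0.20, adjusted p = 0.0383).

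Many mesenchymal markers were lower in the labelled knockouts, as PYGL and SLC2A3 were. Of 13 tested, 9 were lower and 2 higher in knockout 1, 5 and 1 in knockout 2, and 9 and 1 in knockout 3. These are 84.6%, 46.2% and 76.9% of the list, against 17.5%, 26.3% and 18.9% of all genes. FN1 went from 316 CPM in WT to 57.7, 134 and 54.5, while TWIST1 went from 59.96 to 71.9, 50.4 and 73.9. VIM was called higher in knockout 1 (839 to 891 CPM) and THY1 in knockout 2 (237 to 260). The summed level was 1841 to 1858 CPM in WT, 1391 to 1439, 1551 to 1579 and 1291 to 1322 in the knockouts. COL1A2 was at 0 in WT and in knockout 2, and PRRX1 at 0 in knockouts 1 and 3. Endothelial markers, of which 6 were tested, had 5, 4 and 5 lower and summed to 12.6 to 13.0 CPM in WT against 1.66 to 4.96 in the knockouts. The adrenergic genes summed to 9303 to 9514 CPM in WT, 9113 to 9242, 7231 to 7336 and 9244 to 9332. Their part in the results was not tested.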

How the data were processed

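RNA of 14 SK-N-BE2 libraries was measured as deposited counts per gene, whole-number read counts made by the authors with featureCounts 1.5.3 (CoCl2 set) or 2.0.5 (knockout set) over GENCODE 33 protein-coding exons of GRCh38, with no strand or multimapper option, per the file headers. Trimmomatic 0.36 and STAR 2.6.1d are named in the submitters' processing notes. In the knockout set 77.3% to 80.5% of counts from 1 to 10 were even, against 39% to 42.3% in the CoCl2 set, so most of its pairs count as 2 reads. The 13 mitochondrial genes were at 0 in every CoCl2-set library and above 0 in every knockout-set library.

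Each set was fitted apart in R 4.3.3 with edgeR 4.0.16: filterByExpr, TMM scaling, quasi-likelihood F-tests with 1 coefficient per group, a dispersion floor just over 1e-04, and Benjamini-Hochberg adjustment over all genes tested, called under 0.05. The floor raised the estimate of the CoCl2 set (7.66e-05) and not that of the knockout set (0.000463). The test was checked on simulated counts. CPM are TMM-scaled within a set, and RPKM are CPM divided by exon length in kilobases. A call held in every alternative fit if it passed in DESeq2 1.42.0, with DESeq2 size factors, without the low-count filter, with a replicate block, with all 14 libraries in 1 fit, without each library in turn, and without the floor (CoCl2 set) or with counts divided by 2 (knockout set), wherever that fit covers the comparison. Values in every library are given for most of the 5 largest called rises and falls against each control, and log2 changes for others. Of the neighbouring lists, only some of the largest called changes are named. Members and lists were chosen with earlier results of these data known.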

Additional observations from a re-analysis of the deposited data

Results flagged for a closer look

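The labelled knockouts differed from each other in 25 of 31 members (edgeR's quasi-likelihood test among the 3 knockouts, adjusted p under 0.05), which the test of the difference itself found. The value for each is the largest minus the smallest log2 change against WT among the 3. It was 1.00 for PYGL, 0.64 for PGM1, 0.56 for PFKFB4, 0.53 for SLC2A3, 0.52 for ALDOC, 0.47 for PFKFB2, 0.36 for PDK1, 0.32 for GBE1 and 0.31 for GPI. It was 0.29 for PFKM, 0.26 for PFKP, ALDOA and ENO2, 0.25 for ENO1, 0.24 for TPI1, 0.22 for SLC2A1 and PGAM1, 0.20 for LDHA, and 0.19 for HK2 and PKM. The smallest were 0.18 for GYS1 and PFKFB3, 0.15 for PFKL, 0.13 for HK1 and 0.11 for GAPDH. Of these 25 calls 17 held in every alternative fit, and those of SLC2A1, PFKFB2, PFKFB3, HK1, LDHA, ALDOA, GYS1 and PFKL did not.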

How the results depend on the processing

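No result reversed. Of the counts of members recomputed under an alternative, 167 stayed within 1.5 times the count reported and 19 did not. Members lower at 10 µM numbered 7 with all 14 libraries in 1 fit, and members lower at 50 µM numbered 5 in that fit and in DESeq2. Over all genes the 10 µM calls fell from 3098 to 1122 in DESeq2 and 796 in the fit of all 14 libraries. Leaving out 1 library gave 5 to 8 members lower at 50 µM, 6 to 12 higher in knockout 1, 1 to 2 higher in knockout 2, 2 to 7 higher and 3 to 4 lower in knockout 3, 1 to 7 higher and 2 to 5 lower in the knockout mean, and 4 to 6 higher in knockout 2 against the other knockouts. With the knockouts sharing 1 coefficient, 0 members were higher and 0 lower. DESeq2 gave 3 members lower in knockout 3. Where a lone library remained in a group, it was assumed to vary like the others. The cause of these changes was not tested. With a replicate block, members lower in knockout 3 numbered 3, and the other counts of members stayed within 1.5 times. Same-numbered libraries showed little shared deviation (r from -0.0365 to 0.0739 across genes). With 2 libraries a group, these values cannot decide whether the numbers pair them. At 2 libraries a group, SLC16A3, PFKFB2 and PYGL, the scarcest members tested, had the largest standard errors in the CoCl2 set.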
